A study of Saccharomyces cerevisiae with 6 samples.

Results

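The mitochondrial protein import machinery of Saccharomyces cerevisiae was followed at the level of its messenger RNA. It was taken as 34 nuclear genes, chosen by their systematic names: the subunits of the TOM, TIM23, PAM, TIM22, small TIM and SAM complexes, MDM10, the oxidative folding factors MIA40 and ERV1, and the processing peptidase genes MAS1, MAS2, IMP1 and IMP2. Each of the 34 genes was measured by 1 probe set of its own, out of 5657 genes in the table. None of these probe sets has a name ending that marks probes shared with other genes. Probe sequences were not examined.

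The cells were the wild-type laboratory strain CEN.PK113-7D, grown with aeration at 30 °C in 50 mL of medium in baffled 250 mL flasks shaken at 175 rpm. To 3 cultures BSA had been added, an abbreviation that usually stands for bovine serum albumin, and 3 control cultures of the same strain had no BSA. For the amount of BSA and the medium, the sources used here give nothing. The protocol places sampling at 48 h while the design text speaks of the early phase of growth on glucose, so the growth phase is not settled by the labels. Each culture gave 1 Affymetrix array, and the arrays of a group are biological replicates by their labels. As only 1 strain was used, the values describe that strain.

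Nearly all proteins of mitochondria are made in the cytosol and carried in. They first cross the outer membrane through the TOM complex and are then sorted: proteins with a cleavable presequence go on through TIM23 and are pulled into the matrix by the PAM motor, carrier proteins of the inner membrane are escorted by small TIM chaperones to TIM22, cysteine-rich proteins of the space between the membranes are folded by MIA40 and ERV1, and beta-barrel proteins are placed in the outer membrane by SAM. Peptidases then remove those sorting signals that are cleavable, such as presequences. Many of these genes are essential in yeast.

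The import machinery did not move as a unit. With BSA, 9 of the 34 transcripts were higher, 12 were lower and 13 did not pass the threshold, a Benjamini-Hochberg adjusted p under 0.05 in a limma fit over all genes. Of the transcripts that rose, 5 belong to the TIM23 complex and the PAM motor, of 4 members each (TIM17, TIM21, TIM44, PAM16 and PAM18). In the same groups PAM17 fell, and TIM23 and TIM50 did not pass. The others that rose were TOM22, TOM6, MIA40 and SAM35. Those that fell were the pore gene TOM40, the receptor gene TOM70, TOM5, PAM17, 4 of 5 small TIM genes, SAM37, SAM50, MDM10 and IMP2. All changes are given as the log2 value with BSA minus the log2 value without it.

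The members called made up 61.8% of the 34, against 75.4% of all 5657 genes. Of the members, 26.5% were called higher and 35.3% lower, against 28.3% and 47.1% of all genes. The values of the BSA and control arrays did not overlap in 25 of the 34 members (73.5%), against 79.5% of all genes. These shares are near or below those of the whole table. The counts by complex given below stand against the same shares of all genes, and the complexes were not tested as sets. A change of at least 2-fold was found in 1 member (2.94%), against 9% of all genes, and changes ran from -0.72 for TIM12 to 1.09 for PAM16. The median change of the members was -0.04, against -0.13 for all genes, which is 0.09 above it.

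**Figure D1:**
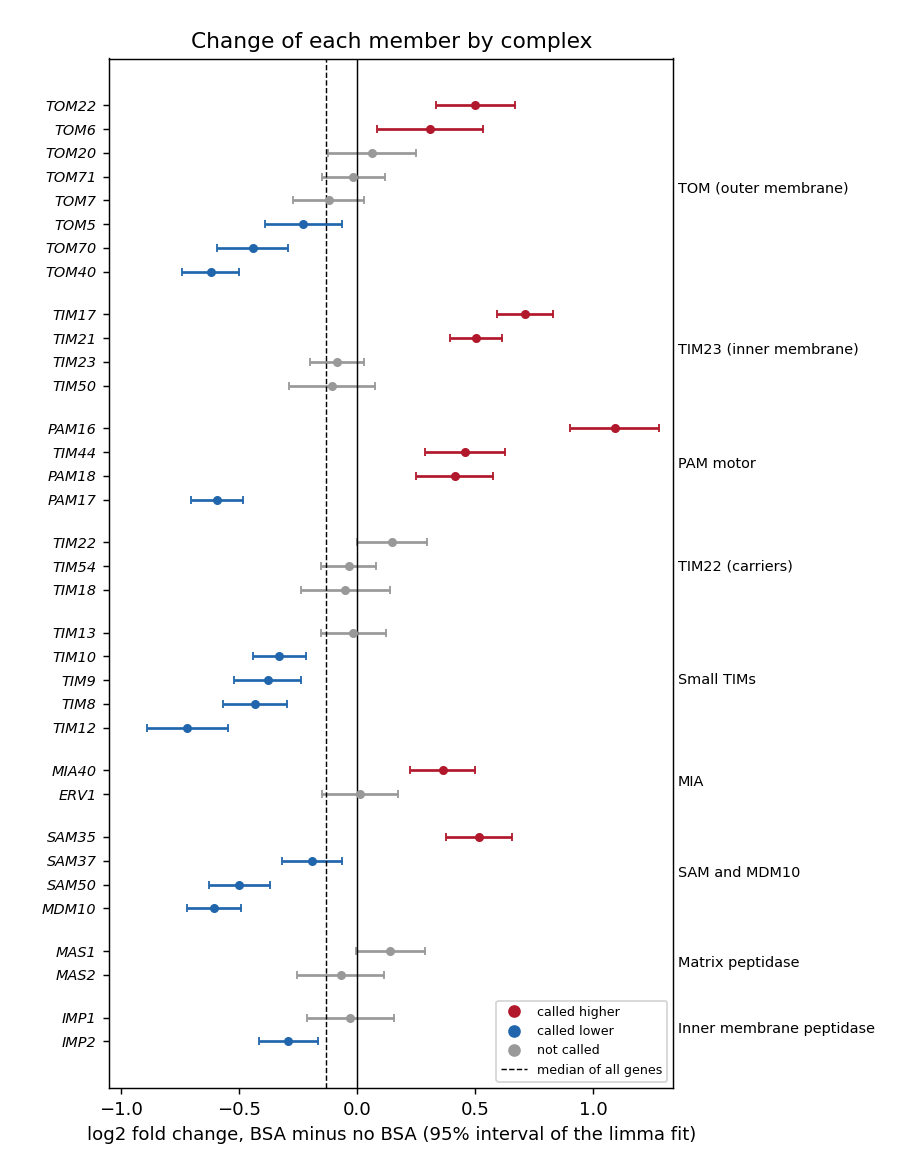
Log2 fold change of each import gene (BSA minus no BSA, horizontal axis) with the 95% interval of the limma fit, grouped by complex. Red points were called higher, blue points lower and grey points not called, and the dashed line is the median of all genes at -0.13. PAM16 at 1.09 and TIM12 at -0.72 are the extremes, and the TOM, PAM and SAM groups hold points on both sides of 0.

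The median of all genes lies below 0, and the split of the calls differed between ways of scaling the arrays. Quantile normalization left it at 9 members higher and 12 lower, and centring on the array median gave 11 higher and 12 lower. When each array was shifted so that the median deviation of its values from their gene means was 0, 12 members were higher and 10 lower, so 54.5% of the called members were higher, against 42.9% as deposited. Cyclic loess normalization also gave 12 higher and 10 lower. In both of these scalings 19 of the 21 members called as deposited kept their call and direction. The medians of the TIM23, PAM, small TIM, MIA, SAM and IMP groups kept their sign under all 4 scalings tried: quantile normalization, this centring, centring on the array median, and cyclic loess. With this centring and after cyclic loess the median of all members turned positive (0.0896 and 0.0334), as did that of TOM (0.0642 and 0.0213), and that of TIM22 turned positive under each of the 4 (0.00614 to 0.129).

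The SD over the members of the difference between 2 arrays was 0.0617 to 0.126 within groups and 0.376 to 0.483 between groups. With control replicates 2 and 3, the closest pair of arrays, counted as 1 sample, 9 members were higher and 12 lower, as with all 6 arrays. Array medians were 7.61, 7.61 and 7.62 in control replicates 1 to 3 and 7.56, 7.58 and 7.57 in BSA replicates 1 to 3. First quartiles were 6.89, 6.91 and 6.92 in the controls and 6.76, 6.79 and 6.80 with BSA. Every BSA array thus lay below every control in both measures. The SE of a member's change came from the limma fit, which moderates each gene's spread with that of all genes. With 3 arrays per group it lay between 0.0471 (TIM21) and 0.0964 (TOM6).

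The TOM complex is the common entry gate, and its 8 transcripts moved in both directions: 2 rose, 3 fell and 3 did not pass, with a median of -0.07. The share called was 62.5%, against 75.4% of all genes. TOM40 (YMR203W) encodes the beta-barrel pore itself. Its log2 expression was 8.74, 8.61 and 8.65 in control replicates 1 to 3 and 8.06, 8.05 and 8.03 in BSA replicates 1 to 3. The 3 BSA arrays lay close together and all below the controls, a change of -0.62 ± 0.05 (SE) or 1.54-fold lower (limma adjusted p = 3.06e-05).

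The receptors of the gate differed from each other. TOM22 (YNL131W), the central receptor that also holds the pores together, had values of 8.28, 8.21 and 8.23 without BSA and 8.84, 8.79 and 8.59 with BSA. Every BSA array was above every control, and the change was 0.50 ± 0.07 (limma adjusted p = 0.000417). TOM70 (YNL121C), the receptor that binds carrier precursors and their cytosolic chaperones, had values of 8.43, 8.37 and 8.39 without BSA and 7.86, 8.07 and 7.94 with BSA. It went the other way from TOM22, again without overlap, by -0.44 ± 0.06 (limma adjusted p = 0.00047). The presequence receptor gene TOM20 (YGR082W, 0.06, 95% interval -0.12 to 0.25) and TOM71 (YHR117W), a paralog of TOM70 (-0.02, interval -0.15 to 0.12), did not pass, and their groups overlapped. TOM20 was called higher only with arrays centred on the median deviation (0.19, limma adjusted p = 0.0484).

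TOM5 (YPR133W-A), TOM6 (YOR045W) and TOM7 (YNL070W) encode small subunits that surround the pore, and their changes were modest. TOM6, which stabilises the complex, rose by 0.31 ± 0.10 (limma adjusted p = 0.0198), and its lowest BSA array (9.45) lay just above its highest control (9.41). That call was lost without control replicate 1, BSA replicate 1 or BSA replicate 2, and also with array weights or quantile normalization (limma adjusted p = 0.0517 to 0.0907 over these 5 settings). TOM5, which takes part in handing precursors to the pore, fell by 0.23 on the log2 scale (SE 0.07, limma adjusted p = 0.0188). The TOM5 call was lost when control replicate 2 or BSA replicate 3 was left out (limma adjusted p = 0.065 and 0.0631). It was also lost after cyclic loess (limma adjusted p = 0.051) and under centring on the median deviation (limma adjusted p = 0.251). TOM7, whose product loosens the complex, changed by -0.12 (interval -0.27 to 0.03) and did not pass, although its groups did not overlap, and it was called lower after quantile normalization (-0.29, limma adjusted p = 0.00491) and with array weights (-0.17, limma adjusted p = 0.0491).

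**Figure D2:**
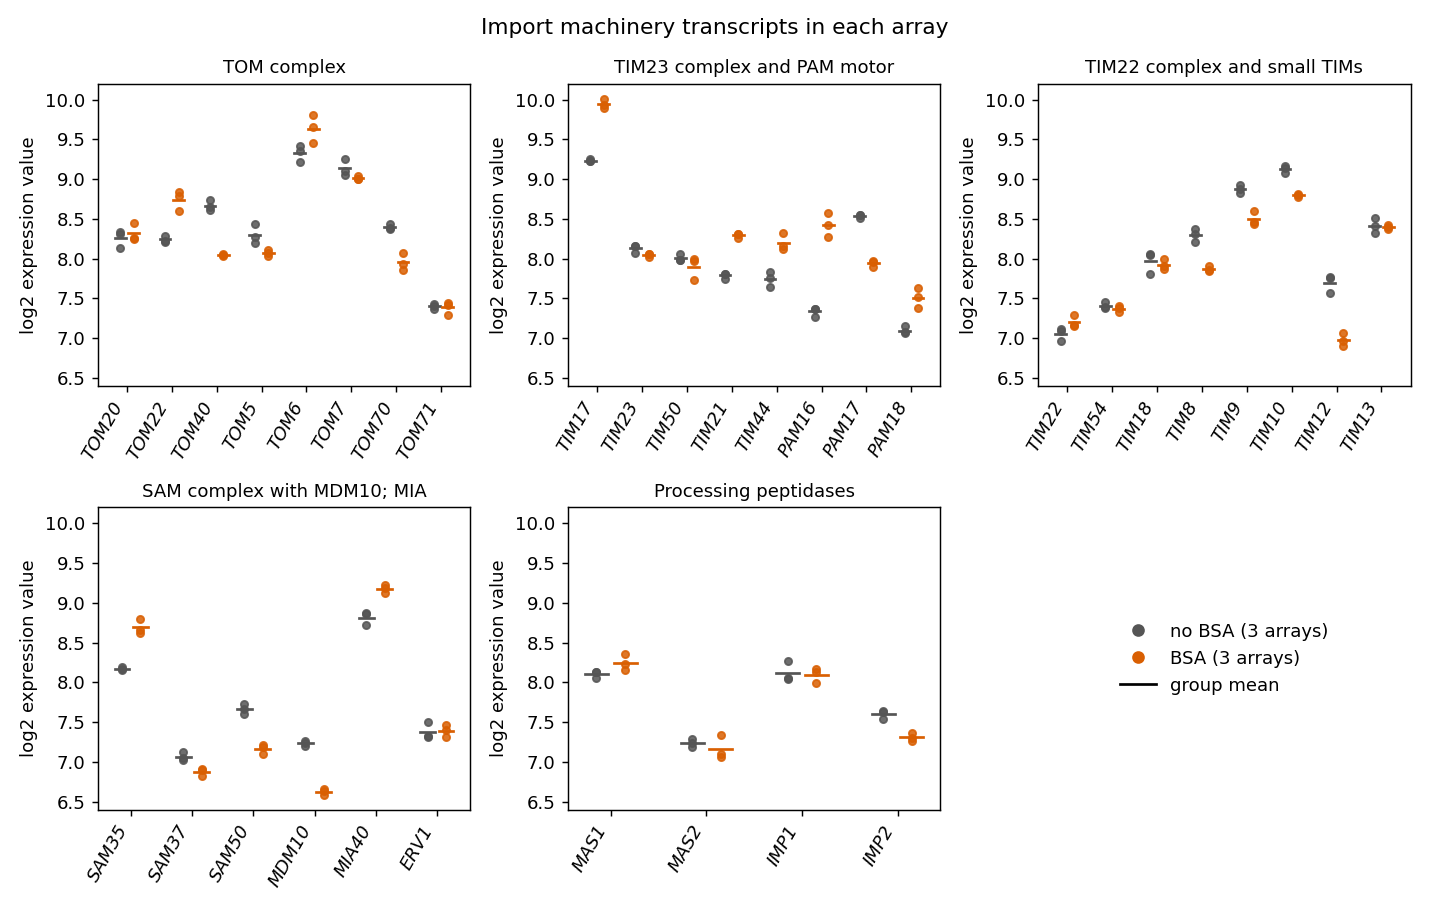
Log2 expression of every import gene in each of the 6 arrays (vertical axis), in panels by complex. Grey points are the 3 control arrays, orange points the 3 BSA arrays, and short lines the group means. PAM16 lies at 7.27 to 7.37 without BSA and 8.28 to 8.58 with it, while TOM40 lies at 8.61 to 8.74 without and 8.03 to 8.06 with BSA. Heights of different genes come from different probe sets and are not comparable.

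The TIM23 complex, the channel for presequence proteins in the inner membrane, had 2 of 4 transcripts higher and 0 lower in the limma fit (0 also at an unadjusted p under 0.05), with a median of 0.21. Of all genes 28.3% were called higher and 47.1% lower. TIM17 (YJL143W) encodes a channel-forming subunit. Its values were 9.23, 9.22 and 9.25 without BSA and 9.93, 10.01 and 9.89 with BSA. Both groups were tight and well apart, and the change was 0.71 ± 0.05, or 1.64-fold (limma adjusted p = 1.58e-05). TIM21 (YGR033C), a subunit that links the channel to TOM and to respiratory complexes, had values of 7.75, 7.81 and 7.81 without and 8.31, 8.31 and 8.26 with BSA. Its groups did not overlap either, with a change of 0.50 ± 0.05 (limma adjusted p = 4.99e-05). TIM23 (YNR017W), the partner channel subunit (-0.09, interval -0.20 to 0.03), and TIM50 (YPL063W), the presequence receptor of the complex (-0.11, interval -0.29 to 0.08), did not pass. TIM23 was called lower with array weights (-0.13, limma adjusted p = 0.01), so that this setting gave 1 lower transcript in the complex.

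The PAM motor pulls proteins into the matrix with the Hsp70 chaperone encoded by SSC1. All 4 of its members here were called, 3 higher and 1 lower, with a median of 0.44, where 75.4% of all genes were called. PAM16 (YJL104W), a J-like protein that holds the J-protein PAM18 (YLR008C) at the channel, showed the largest change of all 34 members. Its values were 7.27, 7.37 and 7.37 without BSA and 8.58, 8.43 and 8.28 with BSA. The BSA arrays differed among themselves but all lay far above the controls, and the change was 1.09 ± 0.08, or 2.13-fold (limma adjusted p = 1.86e-05). PAM18, which stimulates the ATPase of the Hsp70, rose less, from 7.06, 7.15 and 7.08 to 7.63, 7.51 and 7.38. Its change was 0.41 ± 0.07 (limma adjusted p = 0.00105). TIM44 (YIL022W), which tethers the Hsp70 to the channel, had values of 7.65, 7.76 and 7.83 without and 8.16, 8.32 and 8.12 with BSA, a change of 0.46 ± 0.07 (limma adjusted p = 0.000719).

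PAM17 (YKR065C), needed for the assembly of the motor, went against the other motor genes. It read 8.52, 8.54 and 8.55 without BSA and 7.96, 7.90 and 7.97 with BSA, with little spread in either group. Its change was -0.59 ± 0.05, or 1.51-fold lower (limma adjusted p = 2.47e-05). All 4 calls of the motor kept their direction and threshold in the 18 alternatives that were run.

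The TIM22 complex inserts carriers into the inner membrane, and none of its 3 transcripts passed in the limma fit (0 also at an unadjusted p under 0.05), with a median of -0.04. Of all genes 75.4% passed. TIM22 (YDL217C), the insertion channel, had values of 6.97, 7.09 and 7.11 without and 7.17, 7.29 and 7.15 with BSA. Its BSA arrays all lay above the controls by a small margin, a change of 0.15 (interval -0.00025 to 0.29, limma adjusted p = 0.0654). TIM22 was called higher under all 4 scalings that were tried (0.19 to 0.33, limma adjusted p = 0.00169 to 0.0223). TIM54 (YJL054W, -0.04, interval -0.15 to 0.08) and TIM18 (YOR297C, -0.05, interval -0.24 to 0.14), which assist the channel, had overlapping groups. TIM54 turned to a call higher after cyclic loess (0.13, limma adjusted p = 0.0457), and TIM18 was called lower with array weights (-0.13, limma adjusted p = 0.0341).

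The small TIM genes encode chaperones that carry hydrophobic precursors across the space between the membranes, and 4 of the 5 fell while 0 rose in the limma fit (0 also at an unadjusted p under 0.05), with a median of -0.38, which is -0.25 relative to all genes. Of all genes 47.1% were called lower and 28.3% higher. TIM12 (YBR091C), which docks the chaperone onto TIM22, fell furthest of all members. Its values were 7.56, 7.76 and 7.75 without BSA and 6.90, 7.06 and 6.96 with BSA. The groups were far apart, with a change of -0.72 ± 0.07, or 1.65-fold lower (limma adjusted p = 7.55e-05).

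TIM9 (YEL020W-A) and TIM10 (YHR005C-A), which together form the chaperone for carriers, fell to a like extent. TIM9 read 8.82, 8.93 and 8.87 without and 8.59, 8.45 and 8.43 with BSA, a change of -0.38 ± 0.06 (limma adjusted p = 0.000794). TIM10 read 9.16, 9.14 and 9.07 without and 8.80, 8.81 and 8.77 with BSA, a change of -0.33 ± 0.05 (limma adjusted p = 0.000462). In both genes every BSA array lay below every control. The other small TIM chaperone is made of the products of TIM8 (YJR135W-A) and TIM13 (YGR181W), and here the partners differed. TIM8 fell from 8.38, 8.31 and 8.21 to 7.90, 7.84 and 7.86, a change of -0.43 ± 0.06 (limma adjusted p = 0.000294), while TIM13 changed by -0.02 (interval -0.15 to 0.12) and its groups overlapped. The 4 small TIM calls held in all 18 alternatives, also under the 4 scalings.

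MIA40 (YKL195W) and ERV1 (YGR029W) form the relay that puts disulfide bonds into small TIM proteins and other cysteine-rich proteins of the intermembrane space. MIA40, the receptor and oxidoreductase, had values of 8.72, 8.86 and 8.87 without BSA and 9.22, 9.13 and 9.18 with BSA. It rose by 0.36 ± 0.06 without overlap (limma adjusted p = 0.000824), so its transcript moved opposite to those of 4 small TIM genes. ERV1, the sulfhydryl oxidase that reoxidises MIA40, changed by 0.01 (interval -0.15 to 0.17) and did not pass.

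The SAM complex, which inserts beta-barrel proteins, and MDM10 (YAL010C), a beta-barrel protein of SAM that also serves in the tether between the ER and mitochondria, gave 3 transcripts lower and 1 higher, with a median of -0.34. Of all genes 47.1% were called lower and 28.3% higher. MDM10 had values of 7.27, 7.20 and 7.23 without BSA and 6.58, 6.66 and 6.64 with BSA, a change of -0.61 ± 0.05 (limma adjusted p = 2.65e-05). Its signal was dim, and in 3 of the arrays, all with BSA, it lay below the first quartile of the array. SAM50 (YNL026W), the barrel at the core of the complex, had values of 7.72, 7.67 and 7.60 without and 7.10, 7.18 and 7.21 with BSA, a change of -0.50 ± 0.06 (limma adjusted p = 0.000122). Together with TOM40, all 3 members whose products are beta-barrel proteins were lower, a grouping made after the values had been seen.

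SAM35 (YHR083W), the subunit that recognises beta-barrel precursors, rose where the core of its complex fell. It read 8.17, 8.16 and 8.20 without BSA and 8.66, 8.80 and 8.62 with BSA, a change of 0.52 ± 0.06, or 1.43-fold (limma adjusted p = 0.000136). SAM37 (YMR060C), a subunit that helps release the substrate, had a change of -0.19 ± 0.05 (limma adjusted p = 0.0131). That call did not stand under 3 of the 4 scalings: the change was -0.07 after quantile normalization (adjusted p = 0.267), -0.06 under centring on the median deviation (adjusted p = 0.317) and 0.0033 after cyclic loess (adjusted p = 0.956).

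Among the peptidases 1 of 4 transcripts passed, against 75.4% of all genes. MAS1 (YLR163C) and MAS2 (YHR024C) encode the catalytic and the substrate-binding subunit of the matrix processing peptidase, which cuts off presequences, and neither passed in the limma fit (0 of 2 also at an unadjusted p under 0.05). MAS1 changed by 0.14 (interval -0.0064 to 0.29) and MAS2 by -0.07 (interval -0.25 to 0.11). MAS1 was called higher without BSA replicate 3 (0.18, limma adjusted p = 0.0421) and under 3 of the 4 scalings (0.18 to 0.27, limma adjusted p = 0.00904 to 0.0386). Of the inner membrane peptidase, IMP2 (YMR035W) fell from 7.63, 7.54 and 7.64 to 7.27, 7.30 and 7.37, a change of -0.29 ± 0.05 (limma adjusted p = 0.00151). IMP1 (YMR150C), the partner catalytic subunit, changed by -0.03 (interval -0.21 to 0.16).

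Several of these proteins work in fixed pairs, so the change within a pair was compared through the difference of both log2 values in each array, for 7 pairs. The SE given for a pair comes from the spread of its difference within each group and was not moderated by limma. TIM17 gained 0.80 ± 0.04 (SE) on TIM23, TIM8 lost ground to TIM13 (-0.42 ± 0.06) and TOM70 to TOM71 (-0.43 ± 0.11). MIA40 gained 0.35 ± 0.11 on ERV1, IMP1 gained 0.26 ± 0.08 on IMP2, and MAS1 gained 0.21 ± 0.12 on MAS2. In these 6 pairs the BSA and control arrays did not overlap, and the exact permutation test (two-sided, 3 arrays against 3) gave p = 0.1, the smallest this design allows, which is 0.117 after adjustment over the 7 pairs. TIM9 and TIM10 did not part in this way, and their groups overlapped. The change in their difference was -0.05 ± 0.06 (exact permutation test, p = 0.3, also after adjustment). Groups without overlap were common: 79.5% of all genes, taken singly, had them too. Pairs of genes that are not partners were not compared, so the 6 pairs cannot be called particular to partners.

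Of the 7 pairs, 4 moved with single settings by more than 1.5 times. The gain of MIA40 on ERV1 was 0.11 after quantile normalization, that of IMP1 on IMP2 was 0.16 after cyclic loess, and that of MAS1 on MAS2 was 0.07 after either and 0.10 without BSA replicate 1. The small difference of TIM9 and TIM10 ran from -0.12 with array weights to -0.02 without BSA replicate 2, and leaving out any 1 of the 6 arrays moved it by more than 1.5 times, to between -0.10 and -0.02.

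**Figure D3:**
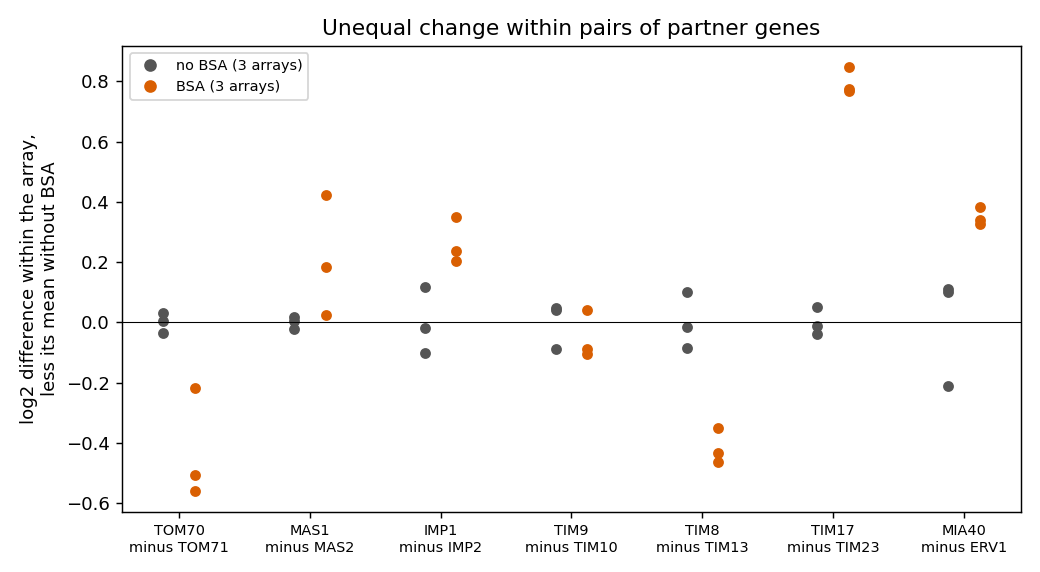
Difference of the log2 values of 2 partner genes in each array, less the mean of that difference without BSA (vertical axis), for 7 pairs. Grey points are control arrays and orange points BSA arrays. The BSA arrays of TIM17 minus TIM23 lie furthest from the controls, with a mean of 0.80, and TIM9 minus TIM10 overlaps.

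BSA replicate 3 was the lowest of the BSA arrays, and so the nearest to the controls, in 8 of the 9 members called higher. The exception was MIA40, where BSA replicate 2 was lowest. Over all 1603 genes called higher, BSA replicate 3 was the lowest in 37.8%. Of the 12 members called lower, BSA replicate 3 was nearest to the controls in 3 (25%) and BSA replicate 2 in 6 (50%), against 45.6% and 35.7% of all 2665 genes called lower. Without BSA replicate 3, 10 members were higher and 11 lower. This count was made after the values had been seen, and what set the order of the BSA arrays was not tested.

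Further genes that serve import and maturation were read from a list of 29. Of these, 13 were higher and 9 lower, that is 44.8% and 31.0%, against 28.3% and 47.1% of all genes, with a median of 0.06. The lower calls were fewer under other settings: 5 without BSA replicate 1 or BSA replicate 2, 5 with arrays centred on the median, 4 with arrays centred on the median deviation and 3 after cyclic loess. XDJ1, a J-protein that meets TOM, changed by 0.88 ± 0.08 (limma adjusted p = 4.26e-05), and ICP55, an aminopeptidase that trims proteins after the matrix peptidase, by 0.78 ± 0.07 (limma adjusted p = 3.13e-05). MGE1, the nucleotide exchange factor of the motor's Hsp70, went from 8.52 ± 0.03 to 9.11 ± 0.13 (SD, n = 3). Its change was in the same direction as those of PAM16, PAM18 and TIM44 and opposite to that of PAM17. MDM34 (0.66 ± 0.07), the outer membrane protein gene OM45 (0.65 ± 0.07) and OXA1 (0.37 ± 0.05), which inserts proteins into the inner membrane from the matrix, also rose.

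SSC1, the Hsp70 of the motor, which was picked after its values had been seen, changed by 0.30 ± 0.11 (limma adjusted p = 0.0348). Its call was lost without BSA replicate 1, 2 or 3 (adjusted p = 0.0534 to 0.101) and after quantile normalization (adjusted p = 0.0855).

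Among the lower genes of that list, MIM1, which inserts helical proteins into the outer membrane, went from 8.42 ± 0.14 to 7.66 ± 0.05 (SD, n = 3; limma adjusted p = 6.68e-05). CIS1, a gene of the response to blocked import, changed by -0.74 ± 0.13 and SOM1, a subunit of the inner membrane peptidase, by -0.44 ± 0.06, in the same direction as IMP2. MMM1 (-0.34 ± 0.07) and MDM12 (-0.22 ± 0.05), which form the tether between the ER and mitochondria with MDM10 and MDM34, also fell, so that 3 genes of this tether were lower and MDM34 higher. The calls of MMM1 (adjusted p = 0.0604) and MDM12 (adjusted p = 0.425) were lost after cyclic loess, and that of MDM12 also under centring on the median deviation (adjusted p = 0.102). PTH2 changed by -0.24 ± 0.08, a call lost under all 4 scalings (adjusted p = 0.0515 to 0.315) and without BSA replicate 1 or 2 (adjusted p = 0.0518 and 0.0732).

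**Figure D4:**
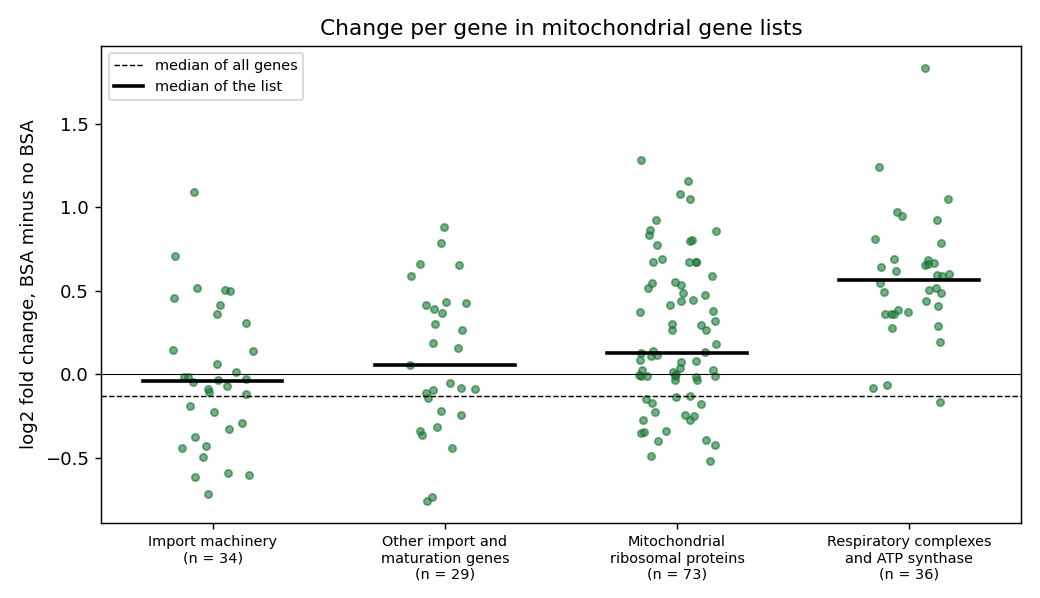
Log2 fold change per gene (BSA minus no BSA, vertical axis) for the import machinery and 3 other lists of mitochondrial genes. Each point is 1 gene, thick lines are list medians and the dashed line is the median of all genes. Import genes spread on both sides of 0 with a median of -0.04, while the respiratory list has a median of 0.57.

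In 2 lists of other mitochondrial genes the share of higher calls lay above that of all genes (28.3%), whereas the share in the import machinery (26.5%) lay close to it. Of 36 genes of the respiratory complexes and ATP synthase, 33 (91.7%) were higher and 1 lower, with a median of 0.57. Of 73 genes listed as mitochondrial ribosomal proteins by their gene symbols, 33 (45.2%) were higher and 15 lower, with a median of 0.13. Whether each product is a part of that ribosome was not checked. The difference between these lists was not tested.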

How the data were processed

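Total RNA of 6 cultures was hybridised to Affymetrix yeast arrays as biotin-labelled cRNA, per the labels' protocols. For the deposited log2 expression values the submitters' processing notes name PLIER and R (2.10.1). How background and scale were treated is not given in the sources used here, and the logarithm's base was inferred as 2, since the values stay within the usual span. The deposited annotation pairs probe sets with ORFs, and names came from the RefSeq gene table of assembly R64, which named 5646 of 5657 genes. Of 5705 probe sets, the brightest per gene was kept.

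The groups were compared with limma 3.58.1 in R 4.3.3 (lmFit, eBayes) on all genes and 6 arrays, with Benjamini-Hochberg adjustment and a threshold of 0.05. Recovery was tried on simulated data with 5657 genes. Of genes changed by 0.3 (log2), 44% were recovered, against 78% at 0.5, 96% at 1 and 100% at 2. Only 50 genes were changed at each size, whereas 75.4% of all genes were called in the real data. The Benjamini-Hochberg cut-off depends on that share, so these percentages do not give the recovery in the real comparison. Pairs of genes were tested by exact permutation.

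The members, lists and tests were chosen with earlier results of these data known. All 34 members are reported. Of the list of other import genes, the 6 called genes with the smallest p in each direction were named. The 18 alternatives were quantile normalization, 2 kinds of centring and cyclic loess (the 4 scalings), a replicate block, an intensity trend, array weights, a filter on dim genes, the mean of probe sets, no shared probe sets, control replicates 2 and 3 as 1 sample, each array left out, and a threshold of 0.01. Promoter motifs were planned and not analysed here.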

Additional observations from a re-analysis of the deposited data

How the results depend on the processing

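In 18 alternatives, 18 to 21 of the 21 member calls kept their direction and threshold. Members called higher numbered 8 to 12 and lower 10 to 15, and leaving out 1 array gave 8 to 10 higher and 11 to 12 lower. The median change of the members (-0.04) was -0.000508 with arrays centred on the median, 0.0896 under centring on the median deviation, 0.0334 after cyclic loess and -0.0746 to -0.0218 with 1 array left out. For TOM, 1 member instead of 2 was higher after quantile normalization, with array weights and at an adjusted p under 0.01, and 1 to 2 with 1 array left out. With array weights 1 TIM23 and 1 TIM22 member were lower instead of 0. For TIM22, 1 member was higher after quantile normalization and with either centring, and 2 after cyclic loess, instead of 0. For the matrix peptidase, 1 was higher with either centring and after cyclic loess, and 0 to 1 with 1 array left out. SAM37 turned to 0.0033 and TIM54 to 0.13 after cyclic loess. The change of TIM17 on TIM23 was 0.74 after quantile normalization, of MIA40 on ERV1 0.11 after quantile normalization and of IMP1 on IMP2 0.16 after cyclic loess. Of the other import genes, 5 instead of 9 were lower with arrays centred on the median or at an adjusted p under 0.01, 4 with the median deviation, 3 after cyclic loess, and 5 to 8 with 1 array left out, and 6 with control replicates 2 and 3 as 1 sample. The 1 lower respiratory gene, SDH4, was not called (0) with the median deviation, after cyclic loess, with control replicates 2 and 3 as 1 sample and at an adjusted p under 0.01, and 0 to 1 were with 1 array left out. Of the mitochondrial ribosomal genes, 8 instead of 15 were lower with the median deviation. The median of all genes (-0.13) became -0.0184 after cyclic loess, -0.0908 with arrays centred on the median and -0.000665 with the median deviation. After quantile normalization it was -0.0940. Why the counts moved was not tested for any setting. Replicate numbers are shared between the groups, and the sample titles do not say whether they pair the arrays. The deviations of same-numbered arrays correlated at 0.10, 0.02 and 0.04 over genes, and not every array correlated best with its own number. With 3 arrays per group these correlations cannot decide whether the arrays are paired. With the replicate block, 9 members were higher and 12 lower, as without it, and 4266 genes passed instead of 4268. The SSC1 call was lost with the block (adjusted p = 0.0561). Precision is limited by 3 arrays per group.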
